A study of Homo sapiens with 54 samples.

Results

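SW48, an established human colorectal cancer cell line, was grown with trametinib or as a control, and RNA was read from the 3′ ends of transcripts. The comparison rests on 6 of the 54 libraries of the series, 3 labelled trametinib and 3 labelled control. They were chosen by cell line, drug label and the table that holds them, the second of the 2 deposited tables, whose new libraries are called set 2 here. The whole series comprises 18 groups of 3 libraries from 6 lines. Further groups used below are SW620 with trametinib and SW620 controls of set 2 (another colorectal line), SW48 with palbociclib of set 2, and another SW48 pair, trametinib and control, called set 1. Each of these groups holds 3 libraries. Cells of all groups grew in the same serum-containing medium (DMEM). The labels give neither a dose nor an exposure time, do not say what the controls received, and do not state whether each library had a culture of its own. The p-values therefore measure the spread between these libraries, which may be technical.

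Trametinib inhibits the kinases MEK1 and MEK2, which phosphorylate and activate the ERK kinases downstream of growth factor receptors, RAS and RAF. Active ERK induces immediate early transcription factors of the AP-1, EGR and ETS families, the growth factors of the EGF family, cyclin D1, and a set of phosphatases and Sprouty proteins that switch the same cascade off again. In colorectal cells the cascade is commonly kept active by mutations in RAS or RAF or by receptor ligands. Palbociclib, by contrast, inhibits the cell-cycle kinases CDK4 and CDK6, which lie downstream of cyclin D1.

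The trametinib libraries held 8859475, 8214388 and 8750976 counts, and the control libraries 9177649, 9580735 and 9519998. Correlations of log2 CPM (gene counts per library total, after TMM scaling of that total) ranged between 0.986 and 0.989 within a group and between 0.929 and 0.935 across the groups, and the first principal component, which separated trametinib from control, held 79.2% of the variance. The 2 mitochondrial ribosomal RNAs took 2.31, 2.25 and 3.33% of the counts with trametinib, against 0.97, 1.45 and 1.6% in the controls, and the 50 highest genes took 17.2 to 18.1% with trametinib, against 15.1 to 16.1%. Without both rRNAs the 50 highest genes took 15.6 to 15.7% with trametinib, against 14.6 to 15%. The part of these shares in the results was not tested. A CPM value is a share of a library, so less RNA of a gene per cell and fewer cells that make it cannot be told apart, nor can a change in the total RNA of a cell be seen.

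The label of the line was set against its markers. Of 13 markers of colorectal epithelium 8 had enough counts to be tested, of which 2 rose and 3 fell with trametinib, and their summed level was 2180 to 2260 CPM with trametinib, against 4130 to 4310 CPM in controls. Within this sum KRT18 alone had 373 to 399.7 CPM with trametinib, against 1998 to 2169 CPM in controls. EPCAM, an epithelial adhesion protein, had 525, 488 and 482 CPM with trametinib, against 536, 501 and 497 CPM in controls. KRT20, CDX1, VIL1, GPA33 and LGALS4 were at few counts in both groups, so these mature gut markers are near absent in SW48. Of 14 mesenchymal and stromal markers 7 were tested, 3 rose and 1 fell, and their sum was 77.4 to 78.7 CPM with trametinib, against 36.5 to 44.1 CPM. DCN had the highest mean level among these markers. For comparison, 30.1% of all genes tested rose and 30.1% fell. Markers of endothelium summed to 0.571 to 1.13 CPM with trametinib, against 0.939 to 1.74 CPM, with PECAM1, CDH5 and CLDN5 at 0 in every library. Markers of white blood cells summed to 18.1 to 22.3 CPM with trametinib, against 12.7 to 14.4 CPM, with CD3E, CD3D, FCGR3A and HBB at 0. Stomach markers summed to 3.77 to 7.3 CPM with trametinib, against 1.15 to 5.45 CPM (GKN1, GKN2 and LIPF at 0), and breast markers to 15.2 to 19.0 CPM, against 16.3 to 19.2 CPM (SCGB1D2, TFAP2B and PIP at 0).

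A majority of the genes that could be measured differed between the trametinib and the control libraries. Of 12688 genes tested with edgeR's quasi-likelihood test, 3814 were higher (30.1%) and 3814 lower (30.1%) at a Benjamini-Hochberg adjusted p of at most 0.05, or 60.1% in all. Among them 1045 (8.24%) were higher and 860 (6.78%) lower by at least 2-fold. The median log2 fold change, trametinib over control, was 0.00782 over all genes tested, so the counts of each gene group below are read against 30.1% in each direction and a median near 0. In 32.8% of genes tested every trametinib library lay above every control, and in 32.7% every trametinib library lay below. Groups of genes below were drawn up by function, with earlier results of these data known.

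**Figure D1:**
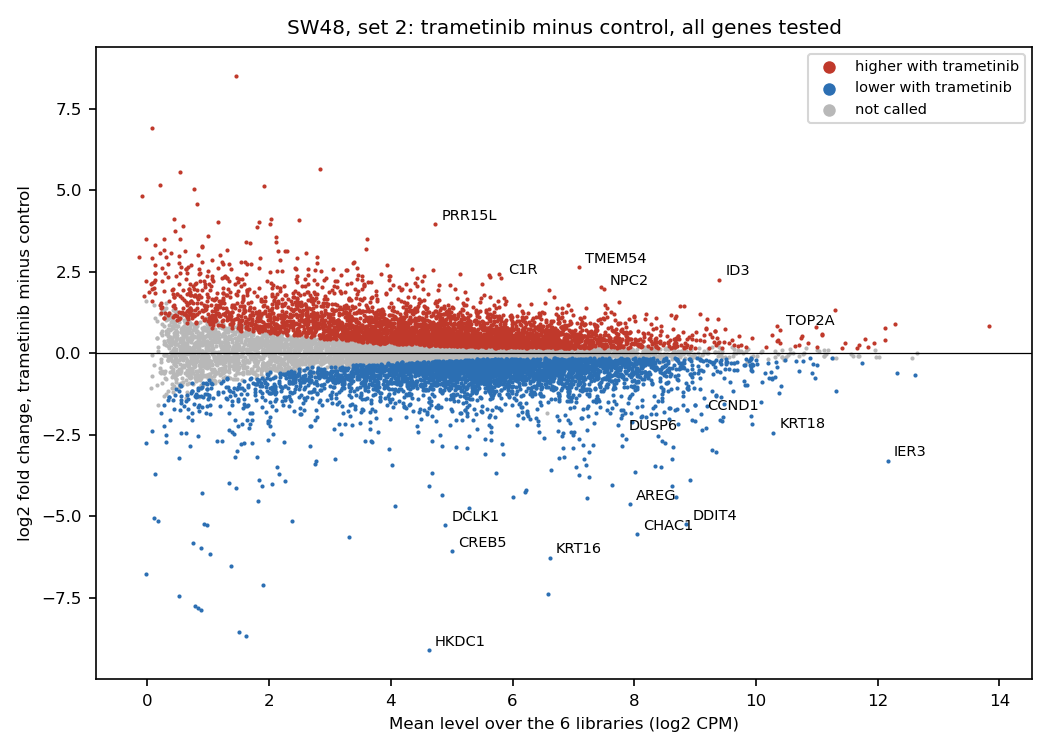
Log2 fold change, trametinib over control, of the 12688 genes tested (vertical axis) against their mean log2 CPM over the 6 libraries (horizontal axis). The 3814 genes called higher are red, the 3814 called lower are blue, and genes not called are grey; the lowest points reach further from 0 than the highest.

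The checks on the drug came first. DUSP6, the phosphatase that removes phosphate from ERK and is itself induced by ERK, had 62.2, 69 and 70.7 CPM with trametinib, against 370.4, 366 and 402 CPM in controls, a log2 fold change of -2.50 (SE 0.07, adjusted p = 2.5e-11). ETV5, an ETS transcription factor used as a readout of ERK output, had 32.4, 33.9 and 32.8 CPM with trametinib, against 195, 189 and 189 CPM in controls (log2 fold change -2.53, SE 0.07, adjusted p = 1.04e-11). SPRY4, a Sprouty inhibitor of the cascade, had 3.8, 2.68 and 5.37 CPM with trametinib, against 13.9, 13.9 and 14.9 CPM in controls (log2 fold change -1.84, SE 0.20, adjusted p = 5.84e-06). In each of the 3 genes all trametinib libraries lay below all controls.

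The negative feedback arm of the pathway fell. Of 18 feedback inhibitors 17 were tested, 13 fell and none rose, with a median log2 fold change of -0.80. ERRFI1, an intracellular inhibitor of the EGF receptor, showed the largest fall of the group, with 8.36, 7.22 and 7.45 CPM with trametinib, against 118, 159.7 and 146 CPM in controls (log2 fold change -4.20, SE 0.13, adjusted p = 4.21e-11). The ERK phosphatase DUSP4 had 28, 31.3 and 33.5 CPM with trametinib, against 118, 128 and 129 CPM in controls (log2 fold change -2.01, SE 0.08, adjusted p = 5.09e-10). DUSP5 fell by 1.6, DUSP2 by 1.17, SPRY2 by 1.12 and SPRED2 by 0.89 on the log2 scale. The 4 members that did not pass the test were SPRED3 (-0.49), LRIG3 (-0.38), LRIG1 (-0.24) and DUSP7 (-0.21).

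The kinases of the cascade themselves moved little and in both directions. Of 18 members tested 4 rose and 6 fell, against 30.1% of all genes tested in each direction, with a median of -0.149. MAPK3, which codes for ERK1, had 39.2, 51.8 and 49 CPM with trametinib, against 16.1, 19.2 and 16.9 CPM in controls (log2 fold change 1.42, SE 0.12, adjusted p = 4.57e-07), with no overlap between the groups. The drug's targets MAP2K1 (-0.30) and MAP2K2 (-0.18) did not pass the test. HRAS fell by 0.63 and BRAF by 0.49.

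Transcription factors and other early response genes that ERK induces fell in 18 of 22 tested members and rose in 4, with a median of -1.51. This group is called the ERK-induced factors below, although IER3 is not a transcription factor. IER3, an immediate early gene, had 776, 858 and 916 CPM with trametinib, against 7507, 9290.0 and 8163 CPM in controls (log2 fold change -3.29, SE 0.08, adjusted p = 9.86e-12). JUN, a subunit of AP-1, had 25, 21.3 and 22.7 CPM with trametinib, against 189, 208 and 225 CPM in controls (log2 fold change -3.17, SE 0.09, adjusted p = 1.95e-11). FOSL1, the AP-1 subunit known as FRA1, had 11.2, 15.1 and 9.86 CPM with trametinib, against 100.0, 102 and 107 CPM in controls (log2 fold change -3.10, SE 0.11, adjusted p = 2.16e-10). In these 3 genes the highest trametinib library stayed far below the lowest control.

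The remaining members fell less steeply or rose. ETV4 had 3.37, 4.89 and 4.16 CPM with trametinib, against 21.1, 20.7 and 19.8 CPM in controls (log2 fold change -2.31, SE 0.15, adjusted p = 6.3e-08). EGR1 averaged 267 ± 9.29 CPM with trametinib and 1125 ± 62 CPM in controls (SD, n = 3 each; log2 fold change -2.08, SE 0.06, adjusted p = 2.75e-11). MYC, the growth-promoting transcription factor, had 56.1, 57.4 and 53.8 CPM with trametinib, against 207, 234 and 227 CPM in controls (log2 fold change -2.0, SE 0.07, adjusted p = 1.53e-10). EGR3, IER2, FOSB, FOS and EGR2 fell by 1.82, 1.73, 1.63, 1.40 and 1.33 on the log2 scale. KLF4 (0.95), ETV1 (0.91), FOSL2 (0.87) and ELF3 (0.73) were the 4 factors that rose, so within the AP-1 and ETS families members moved in opposite directions.

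**Figure D2:**
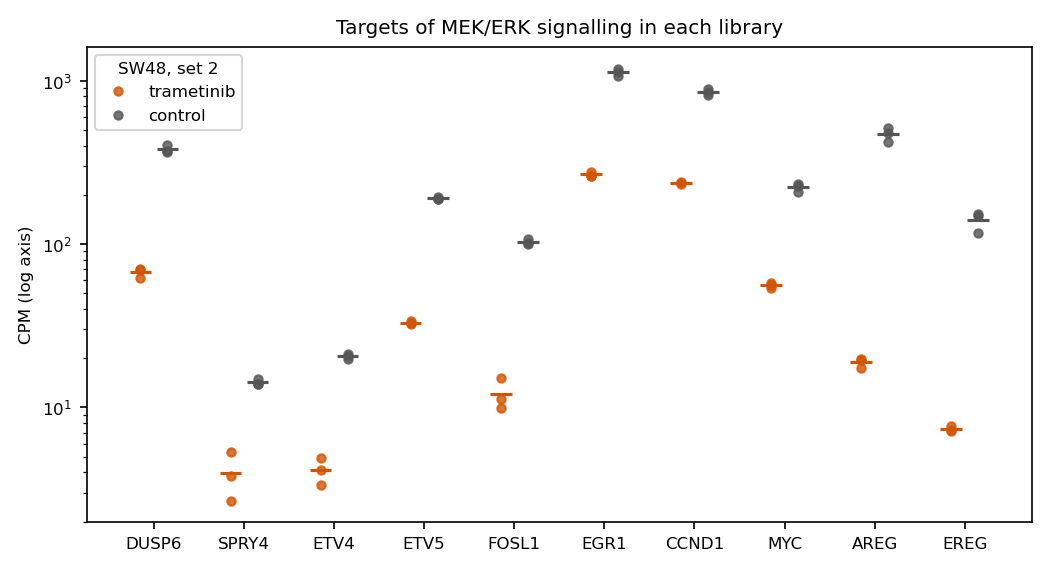
Level in CPM on a log axis of 10 genes downstream of MEK in each library, trametinib left and control right, each point 1 library and each bar the group mean. In all 10 genes the 3 trametinib libraries lie below the 3 controls; for DUSP6 they lie between 62.2 and 70.7 CPM, against 366 to 402 CPM.

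Ligands and receptors of the EGF family parted ways. Of 9 tested members 4 fell and 2 rose. AREG, which codes for amphiregulin, and its chromosomal neighbour EREG, which codes for epiregulin (chromosome 4 of GRCh38.p14), had the steepest falls, by 4.64 and 4.24 on the log2 scale. EREG was left at 7.16, 7.69 and 7.23 CPM with trametinib, against 117, 152 and 149 CPM in controls. HBEGF, another ligand, fell by 1.78. TGFA, a further ligand, had 8.57, 11.4 and 9.53 CPM with trametinib, against 16.9, 12.6 and 13.2 CPM in controls (log2 fold change -0.53, SE 0.16, adjusted p = 0.0122), a smaller difference that did not pass the test without control replicate 1 (adjusted p = 0.0621). Among the receptors ERBB3 had 107, 106 and 108 CPM with trametinib, against 69.2, 62.4 and 60.9 CPM in controls (log2 fold change 0.74, SE 0.07, adjusted p = 1.37e-06), and ERBB2 had 145, 157 and 174 CPM, against 109, 113 and 99.3 CPM in controls (log2 fold change 0.57, SE 0.08, adjusted p = 4.36e-05). Both receptors thus rose with no overlap between the groups, while EGFR had 184, 163 and 169 CPM with trametinib, against 163, 176 and 148 CPM in controls, groups that overlap and did not pass the test (log2 fold change 0.08, SE 0.08, adjusted p = 0.349).

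A group of genes mostly of the cell surface, the matrix and invasion fell. Of 24 genes 19 were tested, 16 fell and none rose, and the median was -1.93. PHLDA1, an early response gene, had 58, 65.5 and 62.4 CPM with trametinib, against 876, 908 and 942 CPM in controls (log2 fold change -3.88, SE 0.07, adjusted p = 9.57e-13). PLAUR, the receptor of the urokinase protease, had 16.1, 20.4 and 25.2 CPM with trametinib, against 225, 321 and 307 CPM in controls (log2 fold change -3.79, SE 0.16, adjusted p = 8.29e-10). EMP1, an epithelial membrane protein, had 56.4, 58.4 and 57.5 CPM with trametinib, against 577, 663 and 679 CPM in controls (log2 fold change -3.48, SE 0.08, adjusted p = 2.25e-12).

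Laminin chain genes, whose products form adhesive proteins of the basement membrane, were among those that fell. LAMA3 had 3.47, 3.5 and 3.94 CPM with trametinib, against 44.5, 48.2 and 47.7 CPM in controls (log2 fold change -3.68, SE 0.12, adjusted p = 5.9e-11) and LAMB3 fell by 3.45. TNFRSF12A, a receptor of the TNF family, fell by 3.41, the ephrin receptor EPHA2 by 2.51, the urokinase gene PLAU by 1.76 and the clotting initiator F3 by 1.07. CD44 (-0.01), EPHA4 (-0.13) and IL18 (-0.06) did not pass the test.

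Promoter windows of these genes were searched for the AP-1 site TGANTCA. Windows and sequences are those of RefSeq for GRCh38.p14, covering 250 bases before to 50 after the annotated start, and both strands were read. Promoters were found for 19 of the 24 listed surface genes, tested or not. Of these 19 promoters 6 held the site (31.6%), those of F3, CXCL8, MMP7, EMP1, LAMA3 and PLAUR. The site stood in 7.76% of all 27305 promoters in the table and in 4.31% of the 9180 promoters of genes tested. CXCL8 and MMP7 had too few counts to be tested. The tested carriers fell, as did most tested genes of the group without the site. In other groups it stood in 1 of 16 promoters of feedback inhibitors (6.25%) and 1 of 15 of ERK-induced factors (6.67%). Keratins had it in 0 of 5 and the ATF4 stress regulators described below in 4 of 20 (20%). The windows of EMP1 (chr12:13196476-13196775, plus strand) and PLAUR (chr19:43670120-43670419, minus strand) are shown 5′ to 3′ because both genes fell steeply, with the AP-1 letters in capitals.
EMP1: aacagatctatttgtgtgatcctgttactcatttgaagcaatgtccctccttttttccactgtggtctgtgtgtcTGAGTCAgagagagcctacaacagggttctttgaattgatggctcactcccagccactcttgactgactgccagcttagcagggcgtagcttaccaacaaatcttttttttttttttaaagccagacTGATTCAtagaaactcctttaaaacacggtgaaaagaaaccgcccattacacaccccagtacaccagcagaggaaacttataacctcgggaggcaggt
PLAUR: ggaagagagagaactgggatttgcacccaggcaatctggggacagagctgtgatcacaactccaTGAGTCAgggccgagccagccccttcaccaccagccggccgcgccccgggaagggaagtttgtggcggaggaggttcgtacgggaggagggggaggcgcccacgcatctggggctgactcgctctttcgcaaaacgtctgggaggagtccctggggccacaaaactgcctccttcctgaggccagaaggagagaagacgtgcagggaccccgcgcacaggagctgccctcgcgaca
EMP1 holds 2 sites, which begin 175 and 48 bases before the start, and PLAUR holds 1, which begins 186 bases before it.

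Keratins, the intermediate filaments of epithelial cells, fell almost without exception. Of 19 keratin genes 14 were tested, 13 fell and 1 rose, with a median of -1.75. KRT16, a keratin of stressed and fast-dividing epithelium (chromosome 17 of GRCh38.p14), had 2.39, 3.61 and 1.53 CPM with trametinib, against 181, 206 and 190.4 CPM in controls (log2 fold change -6.26, SE 0.15, adjusted p = 5.08e-12). KRT18, the main acidic keratin of simple epithelium, had 399.7, 373 and 394 CPM with trametinib, against 2131, 1998 and 2169 CPM in controls (log2 fold change -2.43, SE 0.06, adjusted p = 4.14e-12). Its basic partner KRT8 had 222, 223 and 204 CPM with trametinib, against 753, 711 and 683 CPM in controls (log2 fold change -1.73, SE 0.06, adjusted p = 1.81e-10). KRT80 had 40.2, 40.7 and 41.3 CPM with trametinib, against 195, 219 and 236 CPM in controls (log2 fold change -2.41, SE 0.08, adjusted p = 1e-10), and KRT19 fell by 1.09. In none of these did the groups overlap.

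KRT6A was left with 7 counts over the 3 trametinib libraries, against 117 over the controls, a ratio of 15.3 in favour of the controls (95% interval 7.18 to 38.8, exact and for counting error only). KRT5, a basal keratin, was the only tested keratin that rose (1.12), a call lost without trametinib replicate 3 (adjusted p = 0.104) or control replicate 2 (adjusted p = 0.0518). Several keratins have near-identical copies, and how the authors' counting treated reads shared between copies is not given in the sources used here, so the values of KRT16, KRT6A and KRT81 are uncertain in that respect.

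The ATF4 response, by which cells answer amino acid shortage and stress of protein folding, had the lowest median of the gene groups described here. Of 21 regulators and early targets 19 were tested, 18 fell, 1 rose, and the median was -2.30. CHAC1, a glutathione-degrading enzyme, had 9.99, 12.2 and 10.7 CPM with trametinib, against 482, 572 and 492 CPM in controls (log2 fold change -5.55, SE 0.10, adjusted p = 1.07e-12). DDIT4, an inhibitor of the growth kinase mTOR, had 21.2, 27.1 and 23.3 CPM with trametinib, against 892, 944 and 865 CPM in controls (log2 fold change -5.24, SE 0.09, adjusted p = 9.57e-13). ATF3, a transcription factor induced by stress, had 2.28, 2.45 and 3.4 CPM with trametinib, against 43, 51.4 and 44.1 CPM in controls (log2 fold change -4.08, SE 0.15, adjusted p = 2.42e-10). No trametinib library of these genes came near a control.

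The transcript of ATF4 itself fell by 2.30 on the log2 scale, those of its partners CEBPB and CEBPG by 3.64 and 2.13, and that of ATF5 by 1.82. NUPR1, a stress-induced chromatin protein, was left with 7 counts over the trametinib libraries, against 260 over the controls, a ratio of 33.9 in favour of the controls (95% interval 16.2 to 85.2). EIF2AK4, a kinase upstream of ATF4 that senses uncharged tRNA, was the only member that rose (0.26).

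Enzymes that make amino acids and one-carbon units fell with it, 15 of 18 tested and none higher, with a median of -1.76. ASNS, the enzyme that makes asparagine, had 42.7, 43.8 and 45.8 CPM with trametinib, against 726, 669 and 819.7 CPM in controls (log2 fold change -4.07, SE 0.08, adjusted p = 1.81e-12). PSAT1, an enzyme of serine synthesis, had 148, 151 and 124 CPM with trametinib, against 1151, 1097 and 1212 CPM in controls (log2 fold change -3.03, SE 0.08, adjusted p = 1.04e-11). MTHFD2, a mitochondrial folate enzyme, had 95.1, 97.4 and 96.4 CPM with trametinib, against 662, 749 and 696 CPM in controls (log2 fold change -2.87, SE 0.06, adjusted p = 2.96e-12). Along the serine pathway the falls differed in size: PSPH fell by 2.43, SHMT2 by 1.87 and PHGDH, the first enzyme, by 1.09. SHMT1 (0.22), GOT2 (-0.15) and MTHFD1 (-0.04) did not pass the test; SHMT1 and MTHFD1 are the cytosolic counterparts of SHMT2 and MTHFD2.

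Amino acid transporters fell in 10 of 12 tested members, with 1 higher and a median of -1.92. SLC7A11, the cystine importer, had 17.6, 23.4 and 22.7 CPM with trametinib, against 195, 184 and 208 CPM in controls (log2 fold change -3.20, SE 0.10, adjusted p = 4.77e-11). SLC7A5, the light chain of the main importer of large neutral amino acids, had 129.5, 139.6 and 154 CPM with trametinib, against 1040.0, 1219 and 1042 CPM in controls (log2 fold change -2.96, SE 0.08, adjusted p = 1.95e-11). SLC3A2, the heavy chain that both share, had 402, 415 and 395 CPM with trametinib, against 1470.0, 1615 and 1504 CPM in controls (log2 fold change -1.92, SE 0.06, adjusted p = 3.12e-11). SLC36A1, which exports amino acids out of lysosomes, was the member that rose (0.60).

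Cytosolic tRNA synthetases, which charge tRNAs with their amino acid, fell in 19 of 20 members, with a median of -1.29. WARS, the tryptophan enzyme, had 91.3, 97.5 and 94.6 CPM with trametinib, against 621, 661 and 619.9 CPM in controls (log2 fold change -2.75, SE 0.06, adjusted p = 2.67e-12). YARS, the tyrosine enzyme, had 49.7, 47.4 and 50.4 CPM with trametinib, against 252, 235 and 264 CPM in controls (log2 fold change -2.35, SE 0.07, adjusted p = 3.36e-11). TARS, the threonine enzyme, had 189, 197 and 192 CPM with trametinib, against 775, 809 and 819 CPM in controls (log2 fold change -2.06, SE 0.06, adjusted p = 1.38e-11). QARS, the glutamine enzyme, was the only one higher, with 206, 206 and 194 CPM with trametinib, against 129, 128 and 118 CPM in controls (log2 fold change 0.69, SE 0.06, adjusted p = 1.13e-06).

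The element TGATGNAA, the core of the composite site bound by ATF4 with a C/EBP partner, was looked for in the same promoter windows on both strands. It stood in 6 of 16 promoters of tRNA synthetases (37.5%), in 3 of 12 of transporters (25%), in 3 of 13 of amino acid enzymes (23.1%) and in 3 of 20 of the stress regulators (15%). Among all promoters of the table the share was 3.67%, and among promoters of genes tested 1.61%. Another motif searched, the ETS site CCGGAAG, stood in 8 of the 16 synthetase promoters (50%), against 19.4% of promoters of genes tested. The carriers were TARS, IARS, CARS, MARS, AARS and NARS, then SLC3A2, SLC38A1 and SLC7A1, then MTHFD1L, ASNS and GOT1, and ATF3, CHAC1 and HERPUD1. Transcripts of all 15 carriers were called lower with trametinib, in groups in which most members without the letters were lower too. The windows of CHAC1 (chr15:40953221-40953520, plus strand), ASNS (chr7:97872359-97872658, minus strand) and TARS1, the current symbol of TARS (chr5:33440715-33441014, plus strand), are shown 5′ to 3′ as 1 example each of a stress regulator, an enzyme and a synthetase, with the element in capitals.
CHAC1: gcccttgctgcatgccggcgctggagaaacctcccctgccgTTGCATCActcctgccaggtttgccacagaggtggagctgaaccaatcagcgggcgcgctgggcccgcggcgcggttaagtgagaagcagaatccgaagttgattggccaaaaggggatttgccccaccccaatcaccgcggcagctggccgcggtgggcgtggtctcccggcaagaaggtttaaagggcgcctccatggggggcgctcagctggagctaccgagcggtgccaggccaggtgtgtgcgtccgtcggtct
ASNS: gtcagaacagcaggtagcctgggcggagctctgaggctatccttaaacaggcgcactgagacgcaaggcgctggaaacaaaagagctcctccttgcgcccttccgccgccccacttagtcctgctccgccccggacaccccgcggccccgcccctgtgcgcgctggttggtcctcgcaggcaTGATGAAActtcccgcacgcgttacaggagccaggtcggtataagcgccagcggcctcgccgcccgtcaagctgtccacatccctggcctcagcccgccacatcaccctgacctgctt
TARS1: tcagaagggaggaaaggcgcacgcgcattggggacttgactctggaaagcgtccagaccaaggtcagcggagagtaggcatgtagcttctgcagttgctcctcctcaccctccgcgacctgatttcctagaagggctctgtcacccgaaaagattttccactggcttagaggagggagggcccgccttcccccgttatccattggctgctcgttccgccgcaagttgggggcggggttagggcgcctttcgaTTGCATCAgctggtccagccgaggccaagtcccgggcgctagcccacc
The element begins 209 bases before the start in CHAC1 and 68 bases before it in ASNS, and it lies just after the start in TARS1. In CHAC1 and TARS1 it reads on the opposite strand, so the capitals show its reverse complement.

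Genes of ribosome assembly fell, while 17 of 30 ribosomal protein genes were not called. Of all genes tested 60.1% were called. Of 35 genes of ribosome biogenesis and RNA polymerase I 32 fell and 1 rose, with a median of -0.735. PNO1, an assembly factor of the small subunit, had 19.2, 18.4 and 20.0 CPM with trametinib, against 60.8, 56.2 and 57.6 CPM in controls (log2 fold change -1.60, SE 0.08, adjusted p = 4.33e-09). DDX21, a nucleolar RNA helicase, had 805, 787 and 784 CPM with trametinib, against 1799, 1797 and 1986 CPM in controls (log2 fold change -1.23, SE 0.06, adjusted p = 1.57e-09). UTP15 fell by 1.28 and NIP7 by 1.20, whereas the abundant nucleolar proteins NCL and NPM1 fell by 0.59 and 0.58. Among 30 ribosomal protein genes 5 rose, 8 fell (5 without trametinib replicate 2 or 3) and the median was -0.0852, with RPS15 at 0.47 and RPS6 at -0.31.

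**Figure D3:**
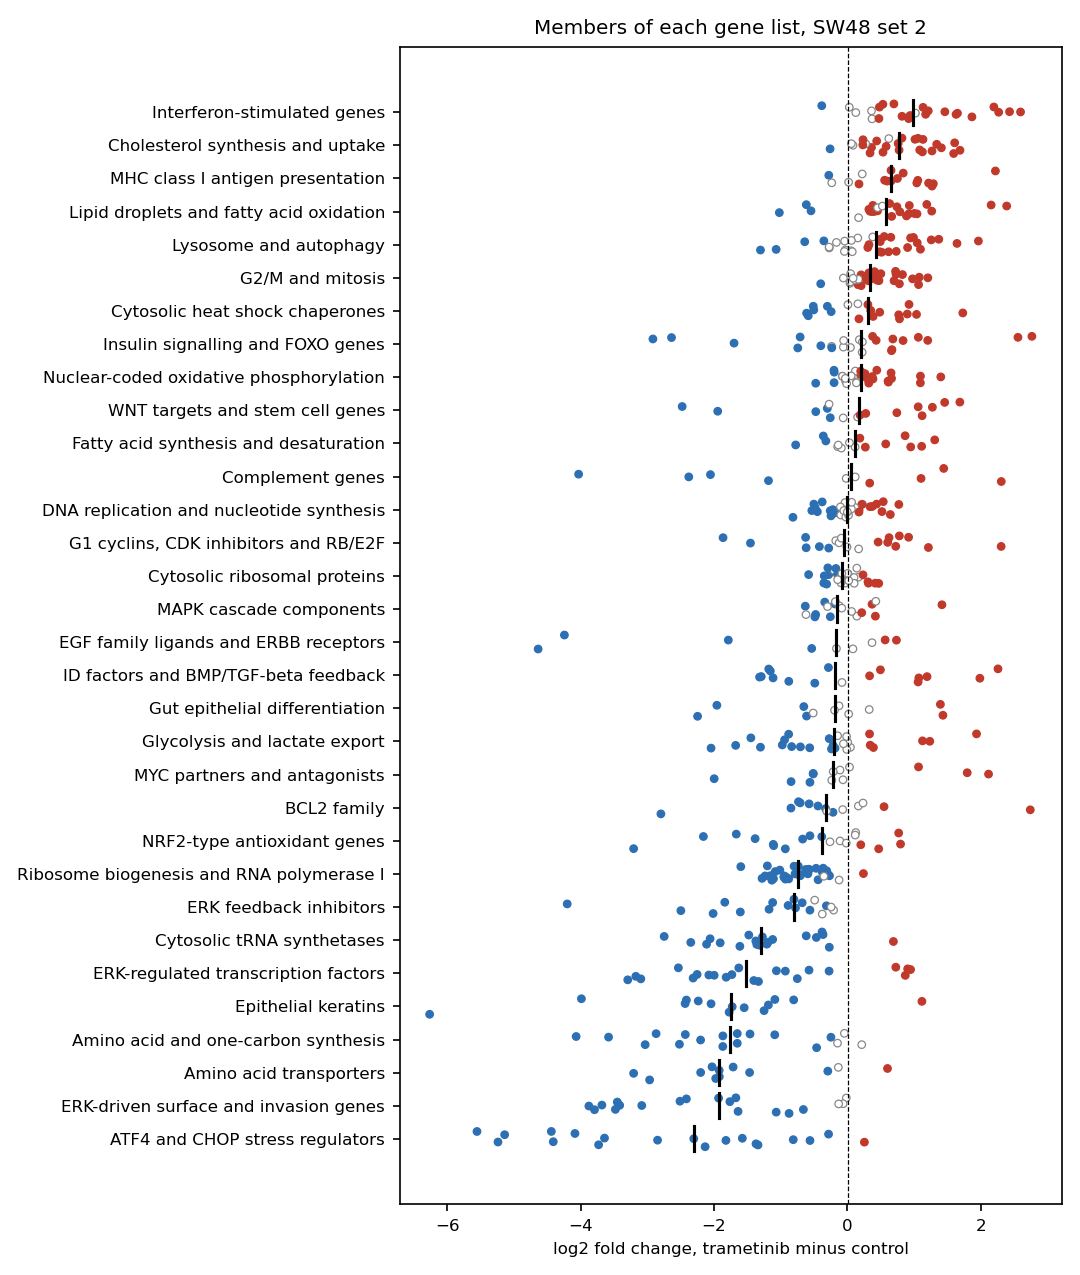
Log2 fold change, trametinib over control, of each tested member of the gene groups (rows), with members called higher in red, called lower in blue and not called as open grey circles. The black bar is the median of a group and the dashed line the median of all genes tested, 0.00782; the ATF4 regulators have a median of -2.30 and the interferon-stimulated genes one of 0.981.

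Genes of MYC's partners and antagonists moved in both directions. MXD3 and MXD4, which code for antagonists of MYC that compete for its partner MAX, both rose. MXD3 had 16.8, 19.3 and 20.4 CPM with trametinib, against 4.18, 4.8 and 4 CPM in controls (log2 fold change 2.12, SE 0.15, adjusted p = 1.34e-07). MXD4 had 67.2, 72.9 and 75 CPM with trametinib, against 20.8, 22.4 and 18.7 CPM in controls (log2 fold change 1.80, SE 0.09, adjusted p = 2.57e-09). Another antagonist, MXI1, fell by 0.56, MAX fell by 0.51 and MYCL by 0.84. Over the whole group of 13 genes 3 rose and 5 fell, against 30.1% of all genes tested in each direction.

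Regulators of the G1 phase moved in both directions, with 8 of 20 higher and 6 lower, against 30.1% of all genes tested in each direction. CCND1, which codes for cyclin D1, had 231, 238 and 236 CPM with trametinib, against 821, 850.3 and 894 CPM in controls (log2 fold change -1.86, SE 0.06, adjusted p = 3.89e-11). CDKN2C, which codes for the CDK4 and CDK6 inhibitor p18, had 32.5, 40.5 and 33.3 CPM with trametinib, against 8.92, 7.75 and 4.78 CPM in controls (log2 fold change 2.31, SE 0.17, adjusted p = 1.87e-07). CDKN1A, which codes for the inhibitor p21, went the other way, with 100.4, 112 and 115 CPM with trametinib, against 301, 298 and 295 CPM in controls (log2 fold change -1.45, SE 0.07, adjusted p = 1.62e-09). The inhibitor genes CDKN1C (1.22) and CDKN1B (0.46) rose, CDK4 fell by 0.63, and RB1 (-0.00) and CDK6 (-0.08) did not pass the test.

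Genes of mitosis were higher with trametinib, not lower. Of 32 tested 24 rose and 1 fell, with a median of 0.334. PTTG1, which codes for the sister chromatid guard securin, had 144, 147 and 146 CPM with trametinib, against 64.3, 70.7 and 54.7 CPM in controls (log2 fold change 1.21, SE 0.08, adjusted p = 9.9e-08). ASPM, a spindle pole protein, had 193, 172 and 198 CPM with trametinib, against 83.2, 87.6 and 96 CPM in controls (log2 fold change 1.08, SE 0.08, adjusted p = 1.07e-07). The proliferation marker MKI67 had 414, 391 and 432 CPM with trametinib, against 232, 234 and 254 CPM in controls (log2 fold change 0.78, SE 0.06, adjusted p = 3.43e-07), with no overlap in any of the 3 genes. NDC80, a kinetochore protein, fell by 0.40. Of 32 DNA replication genes 10 were higher and 10 lower, near the 30.1% of all genes tested that were called in each direction. TK1, thymidine kinase, had 106, 110.3 and 102 CPM with trametinib, against 60.5, 67.8 and 58.2 CPM in controls (log2 fold change 0.77, SE 0.07, adjusted p = 1.6e-06). CDC6, which loads the replicative helicase, had 60.9, 59.5 and 67.8 CPM, against 107, 111 and 112 CPM in controls (log2 fold change -0.81, SE 0.07, adjusted p = 6.5e-07).

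The letters TTTGAA, the core of the cell-cycle homology region found in promoters of mitotic genes, stood in 19 of 27 promoters of the mitotic group (70.4%), against 15.4% of all promoters and 9.36% of promoters of genes tested. The carriers include NDC80, which fell, and PLK1, BUB1B and KIF23, which did not pass the test. The window of ASPM (chr1:197146620-197146919, minus strand) is shown 5′ to 3′. The letters read on the opposite strand there, so the capitals show their reverse complement, beginning 113 bases before the start.
ASPM: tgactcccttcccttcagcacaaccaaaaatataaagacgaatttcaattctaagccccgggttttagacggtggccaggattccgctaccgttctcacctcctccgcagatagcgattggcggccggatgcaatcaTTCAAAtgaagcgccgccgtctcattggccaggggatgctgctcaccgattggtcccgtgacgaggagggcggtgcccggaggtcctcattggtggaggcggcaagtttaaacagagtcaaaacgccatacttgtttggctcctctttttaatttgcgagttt

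Cholesterol synthesis rose across the pathway. Of 26 genes tested 21 rose and 1 fell, with a median of 0.769. INSIG1, an endoplasmic reticulum protein that restrains sterol synthesis, had 90.7, 88.8 and 84.1 CPM with trametinib, against 25.7, 26.9 and 29 CPM in controls (log2 fold change 1.69, SE 0.07, adjusted p = 1.15e-09). HMGCS1, an early enzyme of the mevalonate pathway, had 79.7, 78.5 and 79.4 CPM with trametinib, against 34.1, 25.4 and 29.9 CPM in controls (log2 fold change 1.41, SE 0.09, adjusted p = 4.87e-08). MVK, mevalonate kinase, had 34.4, 39.6 and 45.7 CPM with trametinib, against 12.3, 14.3 and 12.6 CPM in controls (log2 fold change 1.61, SE 0.12, adjusted p = 2.02e-07). The regulator SREBF2 rose by a smaller 0.76.

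Fatty acid synthesis moved less uniformly, with 7 of 15 higher and 3 lower. FADS1, a desaturase, rose by 1.31 on the log2 scale and ACSS2, which makes acetyl-CoA, by 0.95, but SREBF1, the regulator of this pathway, had 54.7, 48 and 52.7 CPM with trametinib, against 89.3, 94.4 and 82.2 CPM in controls (log2 fold change -0.77, SE 0.08, adjusted p = 2.21e-06).

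Genes of lipid droplets and fatty acid oxidation rose in 20 of 26 tested members and fell in 3, with a median of 0.58. PLIN3, a coat protein of lipid droplets, had 88, 77.7 and 79.5 CPM with trametinib, against 16.7, 13.5 and 16.6 CPM in controls (log2 fold change 2.39, SE 0.09, adjusted p = 4.37e-10). PDK4, which keeps pyruvate out of the citric acid cycle, had 6.3, 6.29 and 6.35 CPM with trametinib, against 0.903, 1.96 and 1.33 CPM in controls (log2 fold change 2.16, SE 0.27, adjusted p = 2.05e-05). CPT1A, which admits long-chain fatty acids to mitochondria, was an exception, with 78.9, 80.3 and 85.1 CPM with trametinib, against 166, 168 and 161 CPM in controls (log2 fold change -1.02, SE 0.06, adjusted p = 3.06e-08).

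Lysosomal genes rose in 19 of 34 tested members and fell in 4, with a median of 0.434. NPC2, which carries cholesterol inside lysosomes, had 287, 295 and 280.5 CPM with trametinib, against 74.4, 74.4 and 72 CPM in controls (log2 fold change 1.97, SE 0.06, adjusted p = 4.77e-11). SMPD1, acid sphingomyelinase, had 35.6, 33.3 and 36 CPM with trametinib, against 11.4, 10.7 and 11.4 CPM in controls (log2 fold change 1.65, SE 0.10, adjusted p = 2.59e-08). The fallers included markers of autophagy: SQSTM1, the cargo receptor p62, had 262, 281 and 268 CPM with trametinib, against 559, 587 and 552 CPM in controls (log2 fold change -1.07, SE 0.06, adjusted p = 7.08e-09), and MAP1LC3B fell by 1.30. NPC1, the membrane partner of NPC2, also fell, by 0.64.

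Nuclear-coded genes of oxidative phosphorylation rose in 16 of 29 members and fell in 4, with a median of 0.201, beside the higher share of mitochondrial ribosomal RNA given above, whose part was not tested. NDUFB8, a subunit of complex I, had 257, 243 and 235 CPM with trametinib, against 126, 105 and 112 CPM in controls (log2 fold change 1.10, SE 0.07, adjusted p = 7.65e-08), and SDHA, of complex II, rose by 1.10. Glycolysis went the other way in 14 of 26 members, with 6 higher. The glucose transporters diverged: SLC2A1 had 384, 369 and 366 CPM with trametinib, against 953, 888 and 918 CPM in controls (log2 fold change -1.30, SE 0.05, adjusted p = 8.27e-10), whereas SLC2A3 had 246, 259.6 and 262 CPM, against 108, 111 and 107 CPM in controls (log2 fold change 1.24, SE 0.06, adjusted p = 3.09e-09). HK2, which phosphorylates glucose, had 26.5, 24.8 and 17.3 CPM with trametinib, against 52.9, 62.8 and 71.1 CPM in controls (log2 fold change -1.45, SE 0.14, adjusted p = 1.97e-06), while GAPDH (-0.01) and LDHA (-0.06) did not pass the test.

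Insulin signalling and FOXO genes were mixed, with 10 of 24 higher and 7 lower, against 30.1% of all genes tested in each direction. FOXO4, a transcription factor held in check by the insulin pathway, had 16.6, 18.5 and 18.1 CPM with trametinib, against 2.93, 2.62 and 2.22 CPM in controls (log2 fold change 2.77, SE 0.17, adjusted p = 2.58e-08). IRS1, an adaptor of the insulin receptor, had 65.7, 67.2 and 68.7 CPM with trametinib, against 207, 208 and 239 CPM in controls (log2 fold change -1.70, SE 0.07, adjusted p = 1.09e-09). FOXO1 fell by 0.74 and IRS2 by 0.71.

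Genes of the BCL2 family, which set the threshold for apoptosis, fell in 8 of 14 tested members and rose in 2. PMAIP1, which codes for the pro-apoptotic NOXA, had 11.9, 13.9 and 17 CPM with trametinib, against 93.7, 98.9 and 105 CPM in controls (log2 fold change -2.79, SE 0.10, adjusted p = 2.69e-10). BMF, another pro-apoptotic member, had 4.23, 3.61 and 4.27 CPM with trametinib, against 0.677, 1.09 and 0 CPM in controls (log2 fold change 2.74, SE 0.50, adjusted p = 0.000419), all at few counts. BCL2L11, which codes for BIM, a pro-apoptotic protein that ERK marks for degradation, had 22.5, 21.4 and 24.6 CPM with trametinib, against 28.2, 30.2 and 27.6 CPM in controls (log2 fold change -0.33, SE 0.10, adjusted p = 0.00976), a fall that missed the threshold without trametinib replicate 2 (adjusted p = 0.0508). The anti-apoptotic MCL1 and BCL2L1 fell by 0.57 and 0.44. The death receptor gene TNFRSF10B, outside this family, had 48.6, 51.8 and 40.8 CPM with trametinib, against 181, 198 and 199 CPM in controls (log2 fold change -2.04, SE 0.09, adjusted p = 1.02e-09).

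Interferon-stimulated genes rose in 18 of 24 tested members and fell in 1, with a median of 0.981. IFIT3, an antiviral protein, had 9.34, 9.32 and 7.23 CPM with trametinib, against 1.81, 1.75 and 1.78 CPM in controls (log2 fold change 2.27, SE 0.22, adjusted p = 2.16e-06). IFIT1, of the same family, had 10.1, 6.87 and 9.09 CPM with trametinib, against 1.24, 2.51 and 1.89 CPM in controls (log2 fold change 2.20, SE 0.26, adjusted p = 1.29e-05). The signal transducer STAT2 rose less, by 1.46, while IRF7 fell by 0.38 and IRF1 did not pass the test (0.03).

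Antigen presentation by MHC class I rose in 13 of 17 members and fell in 1, with a median of 0.657. ERAP2, which trims peptides for loading, had 39, 38.3 and 34.2 CPM with trametinib, against 8.8, 7.64 and 7.45 CPM in controls (log2 fold change 2.22, SE 0.11, adjusted p = 5.5e-09). TAPBP, the loading chaperone tapasin, had 124, 128 and 131 CPM with trametinib, against 55.2, 56 and 53.5 CPM in controls (log2 fold change 1.22, SE 0.06, adjusted p = 6.75e-09). B2M, the light chain, had 429, 450.1 and 456 CPM with trametinib, against 261, 233 and 252 CPM in controls (log2 fold change 0.84, SE 0.06, adjusted p = 1.33e-07). HLA-E, HLA-B and HLA-C rose by 0.75, 0.66 and 0.56 on the log2 scale, and the peptide transporter gene TAP2 fell by 0.28. The heavy chains are near-identical in sequence, and reads they share could be split between them.

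The interferon-stimulated response element, a pair of GAAA repeats separated by NN, stood in 16 of 22 promoters of interferon-stimulated genes (72.7%) and in 7 of 13 of the MHC class I group (53.8%), against 3.65% of all promoters and 2.76% of promoters of genes tested. The first group was listed for its response to interferon, so its share does not bear on trametinib. Of its carriers, IFI44 and IFI44L had too few counts to be tested, and IFITM1, IFI27 and ISG20 did not pass the test. The remaining carriers of that group were called higher, as were most of its other tested genes. IFI6, whose transcript had 89.8, 89.6 and 96.2 CPM with trametinib, against 17.9, 15.4 and 17.7 CPM in controls, held 3 copies. Its window (chr1:27672143-27672442, minus strand) is shown 5′ to 3′ with the element in capitals; the first begins 156 and the second 115 bases before the start.
IFI6: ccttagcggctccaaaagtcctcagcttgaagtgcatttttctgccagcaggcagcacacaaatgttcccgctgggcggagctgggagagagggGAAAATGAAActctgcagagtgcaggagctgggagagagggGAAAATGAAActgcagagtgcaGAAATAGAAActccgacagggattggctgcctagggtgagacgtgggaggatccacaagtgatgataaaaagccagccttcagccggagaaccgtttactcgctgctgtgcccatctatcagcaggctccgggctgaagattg

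**Figure D4:**
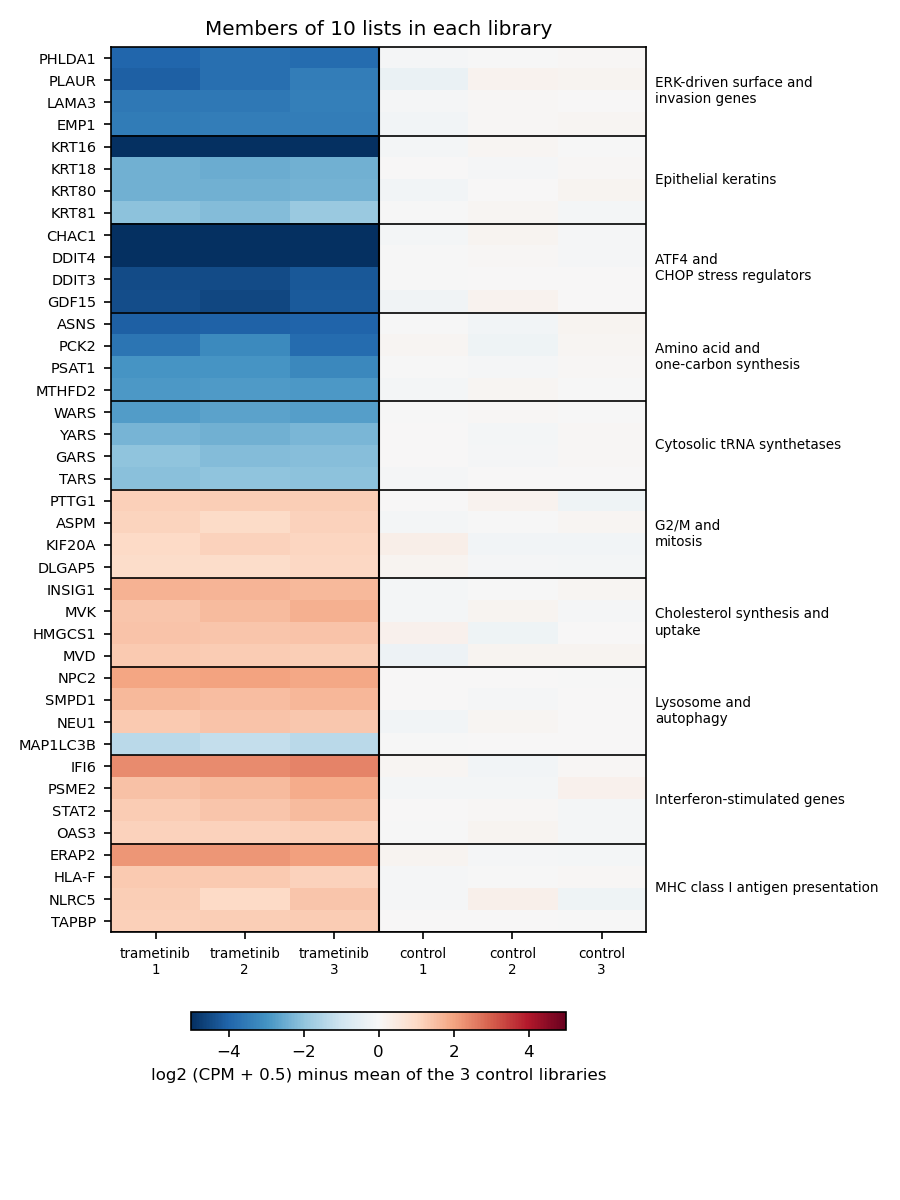
Level in each library, as log2(CPM + 0.5) minus the mean of the controls, of up to 4 called members of 10 gene groups, with the 3 trametinib libraries left and the 3 controls right. Red is higher and blue lower than the control mean; the libraries of a group look alike, and CHAC1 and KRT16 fall furthest.

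Genes of gut identity and signalling moved in both directions. WNT targets and crypt stem cell genes were 8 higher and 5 lower of 16 tested: NOTUM, a secreted WNT inhibitor, had 631, 652 and 608 CPM with trametinib, against 238, 224 and 225 CPM in controls (log2 fold change 1.46, SE 0.06, adjusted p = 4.26e-10), and AXIN2 had 732, 724 and 709 CPM, against 431, 449 and 414 CPM in controls (log2 fold change 0.74, SE 0.05, adjusted p = 1.38e-07). SOX9, a transcription factor of the crypt base, had 109.8, 117 and 115 CPM with trametinib, against 422, 474 and 417 CPM in controls (log2 fold change -1.94, SE 0.07, adjusted p = 1.47e-10). CDX2, which specifies intestinal fate, had 261, 282 and 269.9 CPM with trametinib, against 111, 98.5 and 99.2 CPM in controls (log2 fold change 1.40, SE 0.07, adjusted p = 3.5e-09), while KLF5 had 289, 279 and 293 CPM, against 1032, 1180.0 and 1127 CPM in controls (log2 fold change -1.96, SE 0.06, adjusted p = 6.16e-11). The ID factors, which block the binding of other factors to DNA, rose: ID3 had 1181, 1131 and 1031 CPM with trametinib, against 278, 208 and 212 CPM in controls (log2 fold change 2.26, SE 0.10, adjusted p = 1.45e-09), and ID1 had 736, 752 and 763 CPM, against 353, 332 and 298 CPM in controls (log2 fold change 1.20, SE 0.07, adjusted p = 9.72e-09). ID4 and ID2 rose by 1.99 and 0.33, whereas BMP4, a ligand that induces ID genes, fell by 1.15. Over the whole group of ID factors and BMP or TGF-beta feedback, 7 of 16 rose and 8 fell.

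Antioxidant genes of the NRF2 type fell in 10 of 19 tested members and rose in 4. FTH1, the heavy chain of ferritin, had 427, 352 and 295 CPM with trametinib, against 1698, 1439 and 1661 CPM in controls (log2 fold change -2.16, SE 0.11, adjusted p = 5.7e-09), a gene with many near-identical copies in the genome. NFE2L2, which codes for NRF2, fell by 0.93, and its classical target NQO1 did not pass the test (-0.11). Heat shock chaperones, mostly cytosolic, rose in 11 of 19 and fell in 6. HSP90AA1 rose, with 5994, 5592 and 5327 CPM with trametinib, against 3409, 2999 and 3502 CPM in controls (log2 fold change 0.77, SE 0.07, adjusted p = 5.42e-07). The complement gene C1R had 101, 95.8 and 84.5 CPM with trametinib, against 18.7, 19 and 18.9 CPM in controls, while CD55, which shields cells from complement, had 21.3, 21.2 and 26.2 CPM, against 345, 388 and 389 CPM in controls (log2 fold change -4.03, SE 0.09, adjusted p = 3.72e-12).

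Among genes outside these groups the largest falls included 4 that were nearly silent with trametinib. HKDC1, a hexokinase-like enzyme, had 2 counts over the trametinib libraries, against 1318 over the controls, a ratio of 602 in favour of the controls (95% interval 166 to 4970, exact and for counting error only). CREB5, a transcription factor of the CREB family, had 0.76, 1.05 and 0.986 CPM with trametinib, against 55.5, 62.9 and 70.4 CPM in controls (log2 fold change -6.06, SE 0.17, adjusted p = 1.95e-11). DCLK1, a kinase known as a marker of tuft cells, had 0.434, 1.98 and 2.08 CPM with trametinib, against 52.1, 57.7 and 62.2 CPM in controls (log2 fold change -5.26, SE 0.22, adjusted p = 8.87e-10). FAM129A, passed over at first for the form of its symbol and named after its values were seen, had 1.3, 1.16 and 0.876 CPM with trametinib, against 188, 172 and 209 CPM in controls (log2 fold change -7.39, SE 0.14, adjusted p = 1.07e-12). The groups were far apart in each.

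Other steep falls were those of SLIT1, a guidance protein of axons (-4.76), of INHBE, an inhibin chain (-4.69), and of the secreted peptide gene ADM2 (-4.34). Of the genes named by fold change (mean log2 CPM at or above 4), PRR15L had the largest rise, with 47.8, 51 and 49.5 CPM with trametinib, against 2.71, 3.93 and 2.78 CPM in controls (log2 fold change 3.97, SE 0.13, adjusted p = 8.85e-11). SEMA3C, a secreted semaphorin, had 37.8, 38.8 and 39.6 CPM with trametinib, against 7.22, 8.07 and 7.22 CPM in controls (log2 fold change 2.37, SE 0.10, adjusted p = 1.36e-09), and ADAM10, a sheddase of surface proteins, had 87.2, 70.6 and 61 CPM, against 18.9, 13.9 and 17.6 CPM in controls (log2 fold change 2.12, SE 0.14, adjusted p = 5.25e-08). VAMP8 and TLE2 rose by 2.35 and 2.14 on the log2 scale.

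Trametinib was next set directly against palbociclib in the same line and set, a test that uses no control library. Of 12807 genes tested, 2688 were higher with trametinib than with palbociclib (21%) and 2680 lower (20.9%), of which 319 (2.49%) and 416 (3.25%) by at least 2-fold. All 32 mitotic genes were higher with trametinib, with a median log2 difference of 0.936, and 27 of 32 replication genes were higher and none lower. TOP2A, a topoisomerase of dividing cells, averaged 1676 ± 67.2 CPM with trametinib and 734 ± 34.9 CPM with palbociclib (SD, n = 3 each), a difference of 1.16 (SE 0.06, adjusted p = 5.18e-09). MKI67 averaged 412 ± 20.8 CPM with trametinib and 182 ± 19.6 CPM with palbociclib (log2 difference 1.15, SE 0.08, adjusted p = 9.83e-08). Against the controls that both drugs share, mitotic genes were 24 higher and 1 lower of 32 with trametinib, and none higher and 24 lower with palbociclib, where 28.3% of all genes were higher and 29.2% lower.

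Keratins and surface genes had the lowest medians against palbociclib. Of 15 keratins 12 were lower with trametinib than with palbociclib and none higher, with a median difference of -2.32. KRT18 averaged 389 ± 14 CPM with trametinib and 2172 ± 104 CPM with palbociclib (log2 difference -2.52, SE 0.06, adjusted p = 3.23e-12). KRT16 averaged 2.51 ± 1.04 CPM with trametinib and 71 ± 5.33 CPM with palbociclib (log2 difference -4.86, SE 0.17, adjusted p = 9.93e-11). Surface and invasion genes were lower in 18 of 19 and higher in 1, with a median of -1.92, and ERK-induced factors were lower in 17 of 22 and higher in 4. CDKN1A averaged 109 ± 7.55 CPM with trametinib and 447 ± 39.1 CPM with palbociclib (log2 difference -2.07, SE 0.08, adjusted p = 2.09e-10).

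Among the feedback inhibitors 8 of 17 were lower with trametinib than with palbociclib and 2 higher. DUSP4 averaged 30.9 ± 2.78 CPM with trametinib and 165 ± 6.84 CPM with palbociclib (log2 difference -2.45, SE 0.08, adjusted p = 5.31e-11). DCLK1, PHLDA1, GDF15, CD55, AREG, EMP1 and PRSS22 were lower by 4.75, 3.21, 3.02, 2.95, 2.89, 2.78 and 2.53 on the log2 scale. PRR15L (2.28), LIPH (1.73), ZNF185 (1.70) and NAALADL2 (1.65) had the largest positive differences from palbociclib among called genes whose mean log2 CPM reached 4 and whose groups did not overlap. Glycolysis genes were lower in 17 of 26 members and higher in 1.

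In other groups the median difference between the drugs was smaller. The ATF4 regulators had a median difference of -0.273, with 12 of 18 lower with trametinib, the amino acid transporters one of -0.295 with 7 of 12 lower, and the ribosome biogenesis genes one of -0.154 with 14 of 35 lower. Cholesterol genes had 9 higher and 5 lower of 26, lysosomal genes 8 higher and 12 lower of 34, interferon-stimulated genes 6 higher and 3 lower of 24 and MHC class I genes 10 higher and 4 lower of 17. Against the shared controls the falls of the ATF4 regulators were 18 of 19 with trametinib and 17 of 19 with palbociclib, and the rises of cholesterol genes were 21 of 26 with trametinib and 18 of 26 with palbociclib.

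**Figure D5:**
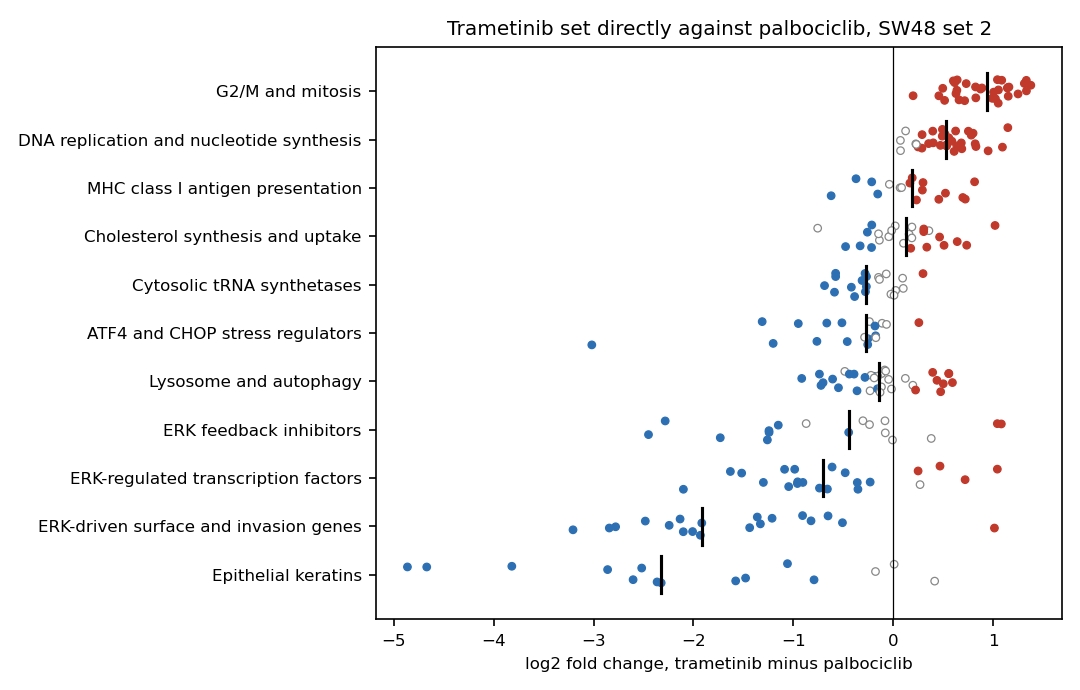
Log2 difference, trametinib minus palbociclib, of each tested member of the gene groups (rows), with members called higher with trametinib in red, called lower in blue and not called as open grey circles; the black bar is the group median. Mitotic genes have a median of 0.936 and keratins one of -2.32.

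SW48 cells had also been given trametinib in set 1, with its own controls, and the difference between the 2 effects was tested over 13429 genes. The log2 fold change was higher in set 2 than in set 1 for 1354 genes (10.1%) and lower for 1290 (9.61%), or for 850 without trametinib replicate 2 of set 2. Differences of at least 2-fold made up 3.93% and 2.82% of the genes. Set 1 alone gave 1957 higher (16%) and 2374 lower (19.4%) of 12235 genes. Genes of the ERK and ATF4 groups fell in both sets, but not by the same amount: the ERK-induced factors had 18 lower and 4 higher of 22 in set 2 and 17 lower and 2 higher of 22 in set 1, and the ATF4 regulators 18 lower of 19 in each. Feedback inhibitors fell in 13 of 17 in set 2 and in 9 of 18 in set 1, where 30.1% and 19.4% of all genes tested were lower. Set 1 libraries held fewer counts, 4063382 to 5211206 with trametinib and 6127950 to 8068003 in controls. The part of depth in the number of calls was not tested. By the test of the difference, the fold change in set 2 was higher for 6 and lower for 7 of 22 ERK-induced factors, higher for 3 and lower for 6 of 19 surface genes, higher for 3 and lower for 3 of 18 feedback inhibitors, and higher for 4 and lower for 1 of 19 ATF4 regulators.

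The sets differed in growth genes. Replication genes had a lower log2 fold change in set 2 for 21 of 32, with none higher, and mitotic genes for 19 of 32, with 1 higher. MKI67 had a log2 fold change of 0.78 in set 2 and of 2.99 in set 1, a difference of -2.21 (SE 0.20, adjusted p = 8.21e-06). Ribosomal protein genes went the other way, with a higher fold change in set 2 for 21 of 30 and a lower one for 1; in set 1 alone 24 of the 30 had fallen and none had risen, with a median of -0.463, against a median of -0.0852 in set 2. Ribosome biogenesis genes fell further in set 2 for 17 of 35 and less for none, as shown by PNO1, at -1.60 in set 2 and -0.23 in set 1 (log2 difference -1.37, SE 0.19, adjusted p = 0.000245). Lysosomal genes had a higher fold change in set 2 for 13 of 34, with none lower. MHC class I genes had a higher fold change in set 2 for 8 of 17 and a lower one for 2. In set 1 alone 4 of these 17 rose and 4 fell, with a median of 0.148, against 0.657 in set 2.

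Single genes differed more widely. EMP1 averaged 57.4 ± 0.962 CPM with trametinib and 639.7 ± 55 CPM in controls in set 2, and 289 ± 28.5 CPM with trametinib and 486 ± 31.7 CPM in controls in set 1 (SD, n = 3 each), so its log2 fold change differed by -2.73 (SE 0.13, adjusted p = 1.73e-08). DCLK1 averaged 1.5 ± 0.923 CPM with trametinib and 57.4 ± 5.06 CPM in controls in set 2, and 24.7 ± 2.46 CPM with trametinib and 26.9 ± 6.73 CPM in controls in set 1. PRR15L averaged 49.4 ± 1.63 CPM with trametinib and 3.14 ± 0.685 CPM in controls in set 2, and 88.7 ± 11.2 CPM with trametinib and 89.6 ± 4.12 CPM in controls in set 1. For both genes the set 1 groups overlapped, and the control level itself differed between the sets, whose levels were scaled apart. BMP4 fell by 1.15 in set 2 and had a log2 fold change of 1.29 in set 1 (log2 difference -2.45, SE 0.15, adjusted p = 1.81e-07).

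The response of SW48 was last set against that of SW620, which received trametinib in the same set. In SW620 edgeR's test called 0 of 12919 genes, with 2204 at an unadjusted p under 0.05, and DESeq2 called 118 higher and 90 lower. The MEK targets used as checks in SW48 were thus not called by edgeR in SW620. How far trametinib blocked MEK in SW620 was not tested. Without 1 of the SW620 trametinib libraries, replicate 1, edgeR called 417 higher and 465 lower of 13141 genes; both alternatives were chosen after seeing the data. Of 14027 genes the log2 fold change was higher in SW48 than in SW620 for 1813 (12.9%) and lower for 2146 (15.3%), and without that SW620 library for 1731 and 2062. Differences of at least 2-fold made up 4.29% and 4.92% of the genes. Among feedback inhibitors the log2 fold change was lower in SW48 for 8 of 17 and higher for none. For the 22 ERK-induced factors it was lower for 13 and higher for 4. The log2 fold change was lower in SW48 for 16 of 21 surface genes (median difference -2.15), 18 of 21 ATF4 regulators (-1.83), 9 of 13 amino acid transporters, 12 of 20 tRNA synthetases, 22 of 35 ribosome biogenesis genes and 8 of 15 keratins.

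It was higher in SW48 for 14 of 25 interferon-stimulated genes, 10 of 17 MHC class I genes, 18 of 27 genes of lipid droplets and fatty acid oxidation, 13 of 29 of oxidative phosphorylation and 11 of 20 chaperones. PHLDA1 averaged 62 ± 3.78 CPM with trametinib and 909 ± 33.1 CPM in controls of SW48, and 646 ± 68.9 CPM with trametinib and 619 ± 29.4 CPM in controls of SW620 (log2 difference -3.96, SE 0.13, adjusted p = 3.13e-10). CHAC1 averaged 11 ± 1.14 CPM with trametinib and 516 ± 49 CPM in controls of SW48, and 83.7 ± 57.3 CPM with trametinib and 103 ± 7.72 CPM in controls of SW620 (log2 difference -5.28, SE 0.65, adjusted p = 5.18e-05). Mitotic genes did not separate the lines as a group, with 3 higher and 1 lower of 32.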

How the data were processed

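RNA was extracted with Trizol and 500 ng of total RNA were made into Lexogen QuantSeq 3′ libraries, per the labels' protocols. Reads were trimmed with Trimmomatic, aligned with STAR to hg38 and counted with featureCounts, per the submitters' processing notes; neither versions nor annotation could be read from these notes. The authors deposited raw counts per gene for 33119 symbols, whole numbers without normalisation. The second deposited table repeats the 12 set 1 libraries with identical counts, and these copies were the ones used. 3′ counts were not corrected for gene length, so levels of different genes were not compared.

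Counts were fitted in R 4.3.3 with edgeR 4.0.16 (quasi-likelihood test, two-sided; filterByExpr, minimum count 10, minimum total 15; TMM; Benjamini-Hochberg adjustment over all genes tested, threshold 0.05), on the groups of each comparison only. A difference between sets or lines was the difference of the drug effects. Standard errors were derived from the test statistic. The fits were checked on simulated counts in which 200 genes had been changed. Members and gene lists (33 lists, 742 genes, of which 673 were tested with 69 left out for low counts) were chosen with earlier results of these data known. Genes were named if they were among the 15 steepest rises or 15 steepest falls that passed the test, had a mean log2 CPM at or above 4 and showed no overlap between groups; also named were the 8 highest and 8 lowest of each other comparison by the same limits, described list members, fixed targets of MEK, and the 10 genes with most counts in the controls; symbols that are clone, open-reading-frame, LINC, KIAA or FAM numbers were passed over (FAM129A was added after its values were seen), and a few others are omitted for brevity. Same-numbered libraries did not deviate together (correlations 0.0621, -0.016 and -0.0656), and the numbers do not pair them. Whether PCR copies were removed is not stated, so intervals cover counting error only. Promoters were matched by symbol in RefSeq (GRCh38.p14), 9 motifs were searched, and no test was made of them. The ETS site CCGGAAG stood in 0 of 16 promoters of feedback inhibitors and 1 of 15 of ERK-induced factors (6.67%). Its share was 19.4% among promoters of genes tested. The sterol element TCACNCCA stood in 3 of 19 promoters of cholesterol genes (15.8%). It stood in 4 of 22 of lipid droplet and oxidation genes (18.2%), against 3.17% of promoters of genes tested. Shares of the E-box, FOXO site and CLEAR element are not reported here. Python 3.11.15 with matplotlib 3.10.9 drew the figures. Some genes of the lists are not reported here.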

Additional observations from a re-analysis of the deposited data

Results flagged for a closer look

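The effect of trametinib in SW48 differed between set 2 and set 1 by a test of the difference itself, with 1354 genes higher and 1290 lower in set 2. The genes given here are those the naming rule picked (adjusted p past the threshold, mean log2 CPM at or above 4, no overlap between trametinib and control libraries of SW48 in set 2, symbols that are not clone, open-reading-frame or FAM numbers), and genes outside these limits, FAM129A among them, can have larger differences. Within them KRT81 had the largest positive difference of log2 fold changes between the sets, 6.40, with 13.9 CPM with trametinib and 57.4 CPM in controls in set 2, and 0.263 ± 0.0951 and 99 ± 21.3 CPM in set 1. The set 1 trametinib level of KRT81 rested on few counts, so the size of this difference is uncertain. PROM1 followed with 6.33, SLC2A3 with 4.42 and NKX2-5 with 4.33. SLC2A3 rose in set 2 and had a log2 fold change of -3.20 in set 1. This glucose transporter gene averaged 256 ± 8.33 CPM with trametinib and 109 ± 1.8 CPM in controls in set 2, and 1.08 ± 0.543 and 10.3 ± 4.2 CPM in set 1. PROM1 and NKX2-5 had controls of set 1 that differed widely among themselves (31.3 ± 28.8 and 11.6 ± 13.5 CPM, SD, n = 3).

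Among the negative differences within the same limits NOTUM had a difference of -6.93, DCLK1 of -5.14, VSNL1 of -4.26 and IQGAP2 of -3.75. NOTUM averaged 630.3 ± 22.5 CPM with trametinib and 229 ± 7.87 CPM in controls in set 2, and 71.3 ± 4.41 and 0.197 ± 0.0799 CPM in set 1. VSNL1 averaged 116 ± 1.23 CPM with trametinib and 80.1 ± 4.14 CPM in controls in set 2, and 5.8 ± 1.52 and 0.193 ± 0.0618 CPM in set 1, so the control level as well as the fold change differed between the sets. NOTUM and VSNL1 were at few counts in the set 1 controls, so the size of their differences is uncertain. The labels do not say in what else the sets differ, so set and growth conditions cannot be told apart.

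The effect also differed between SW48 and SW620 in set 2, with 1813 genes higher and 2146 lower in SW48. AKR1C3 had a difference of 3.36, with 7.19 ± 1.34 CPM with trametinib and 0.444 ± 0.192 CPM in controls of SW48, and 61.1 ± 16.5 and 40.5 ± 1.84 CPM in SW620. It was at few counts in the SW48 controls. IFITM2 (3.04), STON2 (3.0) and NUDT1 (2.81) followed, of which IFITM2 and STON2 rested in SW48 on 62 counts with trametinib against 10, and on 58 against 7. Within the same limits the lowest differences were those of HKDC1 (-8.20), CST7 (-5.84), KRT16 (-5.49) and CHAC1 (-5.28). CST7 was left with 1 count over the SW48 trametinib libraries, against 189 over the controls, and KRT16 had few counts in SW620. In SW620 CST7 averaged 44.1 ± 30.6 CPM with trametinib and 109 ± 7.26 CPM in controls, a wide spread among the 3 trametinib libraries.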

How the results depend on the processing

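The fits were repeated with DESeq2's size factors, with no filter, with DESeq2 1.42.0, with all groups of set 2 in 1 fit, with a robust dispersion, with a 2-fold minimum and without each library; none reversed a result. DESeq2 gave 3375 genes higher and 3526 lower for trametinib against control, and the fit of all set 2 groups gave 3253 and 2999. In that last fit 70 calls of list members and named genes were lost, among them those of ACSS2, AXIN2, IRF7 and BCL2L11. With a minimum of 2-fold, 1045 genes were higher and 860 lower for trametinib against control, 528 and 379 for set 2 minus set 1, 602 and 690 for SW48 minus SW620, and 319 and 416 for trametinib minus palbociclib. The same minimum left 7 feedback inhibitors and 10 ribosome biogenesis genes lower, and 3 mitotic, 11 cholesterol, 6 lipid, 11 interferon-stimulated and 6 MHC class I genes higher. Leaving out 1 library gave 3404 to 3587 higher and 3451 to 3721 lower for trametinib against control, 1051 to 1522 and 850 to 1263 for set 2 minus set 1, 1522 to 1847 and 1521 to 2271 for SW48 minus SW620, and 2136 to 2482 and 2170 to 2493 for trametinib minus palbociclib. The cause was not tested. NKX2-5 lost its call in the difference between sets with a robust dispersion and without trametinib replicate 3 of set 1.

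The replicate number as a block gave 3783 genes higher and 3801 lower for trametinib against control, 1117 and 1046 for set 2 minus set 1, 1557 and 1927 for SW48 minus SW620, and 2646 and 2646 for trametinib minus palbociclib; the numbers share no pairing in the labels.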
